A study of Mus musculus with 2 samples.

Results

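Fatty acids enter metabolism bound to coenzyme A (CoA), and the acyl-CoA thioesterases (ACOT enzymes) cut that bond, which gives back a free fatty acid and free CoA. This hydrolysis runs against the acyl-CoA synthetases, which make the same bond, and the enzymes sit in the cytosol, in mitochondria and in peroxisomes. They come from unrelated folds: the type I enzymes, encoded in mice by a cluster of neighbouring genes, are alpha/beta hydrolases, and the type II enzymes carry hotdog domains. In liver and heart several type I genes are known targets of the fatty acid receptor PPARalpha.

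The 10 genes described here are Acot1, Acot2, Acot3, Acot4, Acot7, Acot8, Acot9, Acot11, Acot12 and Acot13, taken by symbol from the 45706 gene IDs of the count files. All 10 were found. RNA sequencing was done on intestinal stem cells of the mouse strain Lgr5-EGFP-IRES-creERT2. In that strain a green fluorescent protein and a Cre recombinase are made from the Lgr5 locus, which is active in crypt-base stem cells. There was 1 library from mice that were fasted and 1 library from mice with free access to standard chow. Both came from animals of 4 months that carried the reporter allele, and both were made from cells of high GFP. How long the fast lasted, and how many mice entered each library, is not stated in the labels.

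The fasted library held 5020056 counts and the fed library 6985316 counts, so 1 count equalled 0.199 and 0.143 counts per 1000000 counts (CPM). With 1 library per condition there was no test and no replicate check, and p-values were not computed. Ratios are fasted over fed after scaling, with exact 95% Clopper-Pearson intervals that cover counting error only. A gene was called measured if it averaged at least 1 CPM and had at least 20 reads over both libraries. Of measured genes, those with a ratio of 2-fold or more in either direction and an interval that excluded 1 are named higher or lower, always of the fasted library. Fewer cells of a type and less RNA per cell cannot be told apart in such bulk libraries. Lgr5 had 340 CPM in the fasted library and 484 CPM in the fed library, a log2 ratio of -0.49 (-0.57 to -0.40). Absorptive enterocyte markers, by contrast, showed 8 higher and 0 lower among 12 genes, and their levels summed to 3610 CPM in the fasted and 1867 CPM in the fed library. The 4 with the highest log2 ratios were the fatty acid binding protein gene Fabp1 at 4.78 (4.58 to 4.99), the peptide transporter gene Slc15a1 at 2.50 (1.60 to 3.50), the apolipoprotein gene Apoa1 at 2.33 (2.17 to 2.49) and Fabp2 at 1.71 (1.60 to 1.82). None of the 12 was at 0 in either library, and their part in the Acot values below was not tested.

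Acot1 and Acot2 lie next to each other on chromosome 12, and their coding sequences show how far reads can be assigned to one of them. Over 1239 aligned bases the coding sequences were 95.2% identical, with 59 differing bases and an identical stretch of up to 273 bases. The Acot2 coding sequence is 1362 bases long and that of Acot1 1260 bases. The Acot2 coding sequence begins with 123 bases that lie before the first base aligned to the Acot1 coding sequence. ACOT2 is a mitochondrial protein, whose presequence lies at its start, while ACOT1 is cytosolic. The stretch shown first is this start, bases 1 to 123 of the Acot2 coding sequence of GENCODE release M21 (GRCm38). The other 2 lines are the 60 aligned bases in which the genes differ most, at 13 positions in capitals, from base 823 of Acot1 and base 946 of Acot2.
Acot2 start: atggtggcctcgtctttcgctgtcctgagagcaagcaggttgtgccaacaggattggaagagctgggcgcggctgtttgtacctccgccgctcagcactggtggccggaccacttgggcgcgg
Acot1 stretch: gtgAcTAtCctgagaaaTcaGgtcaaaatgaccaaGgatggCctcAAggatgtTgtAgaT
Acot2 stretch: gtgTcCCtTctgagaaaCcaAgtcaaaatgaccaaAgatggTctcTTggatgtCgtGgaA

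Most of the transcribed sequence nevertheless differed between the pair. Of all windows of 50 bases in the Acot1 transcripts, 13.6% were also found in Acot2, and of those in Acot2, 24.5% were found in Acot1. With windows of 36 bases the shares were 15.7% and 28.2%, and with windows of 100 bases 9.32% and 17.1%. Counting every other gene, 19.2% of the Acot1 windows and 27.7% of the Acot2 windows of 50 bases were shared. The read length of the libraries is not given in the sources used here. Acot7 and Acot13 had 0 windows of 50 bases in common with any other gene. Acot9 shared 15.2% of its windows with Acot10, an intronless copy of it, which had 0 counts in both libraries.

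In the fasted library, 3 type I genes of the chromosome 12 cluster were higher, and 4 of the 6 type II genes were measured and within 2-fold. Of the 10 genes 8 were measured. Of these, 3 were higher (37.5%), against 2.51% of all 12026 measured genes, and 1 was lower (12.5%), against 1.91%. The remaining 4 were neither. The higher genes were Acot1, Acot2 and Acot4, and the lower gene was Acot9. The median log2 ratio of the 8 was 0.50, against -0.02 for all measured genes. Acot3 and Acot12 lay below the minimum level.

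**Figure D1:**
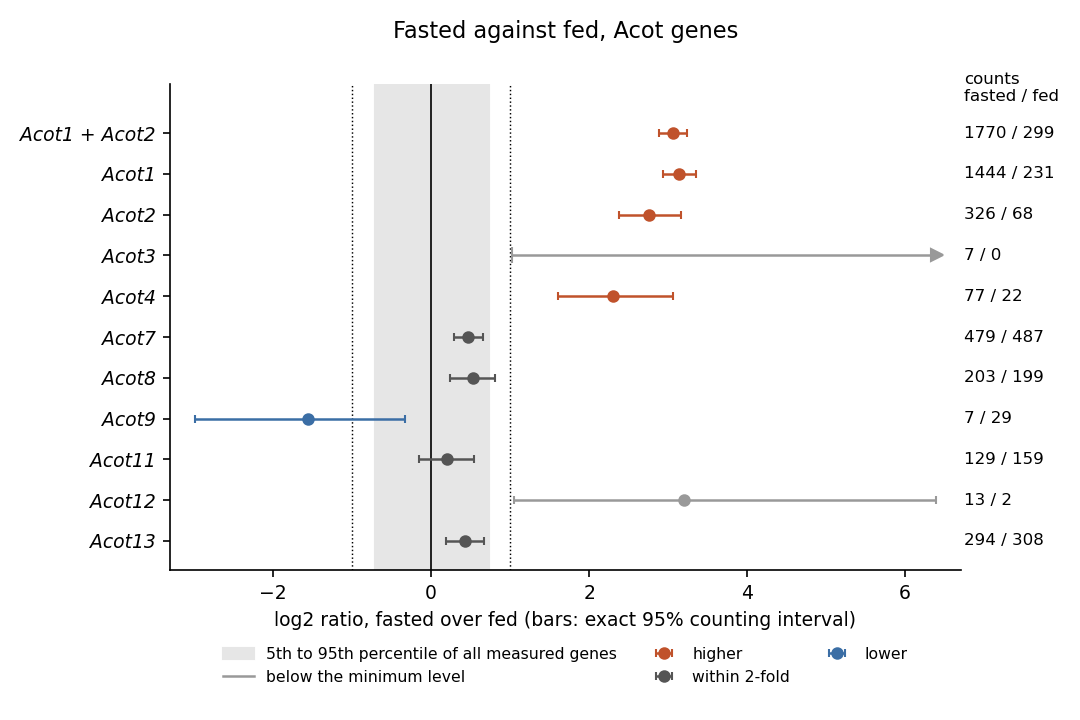
Log2 ratio of fasted over fed for each Acot gene and for Acot1 and Acot2 summed (points), with exact 95% counting intervals (bars) and the counts of both libraries at the right. The grey band spans the 5th to 95th percentile of all measured genes, -0.71 to 0.74, the dotted lines mark 2-fold, and the arrow for Acot3 stands for an interval with no upper end, since its fed count was 0. Of the measured genes, Acot1, Acot2 and Acot4 lie above the band and Acot9 below it. Acot3 and Acot12, which were not measured (labelled as below the minimum level), also lie above it, with intervals that begin at 1.03 and 1.06.

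Acot1 encodes the cytosolic enzyme for long-chain acyl-CoAs (GRCm38, chr12:84009490-84018371, plus strand). It had 1444 counts (288 CPM) in the fasted library, against 231 counts (33.1 CPM) in the fed library. The log2 ratio was 3.14 (2.94 to 3.35), an 8.83-fold higher level in the fasted library, and 99.8% of measured genes had a lower ratio. Acot2, the mitochondrial counterpart (chr12:83987861-83993873, plus strand), had 326 counts (64.9 CPM) in the fasted library and 68 counts (9.73 CPM) in the fed library. Its log2 ratio was 2.76 (2.38 to 3.16), or 6.77-fold. For both genes the fasted library was far above the fed library relative to the counting interval.

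Summed, so that reads assigned to the wrong one of the pair do not matter, Acot1 and Acot2 had 1770 counts in the fasted library and 299 in the fed library. A sum cannot restore reads that were left uncounted or assigned to other genes. The log2 ratio of the sum was 3.06 (2.89 to 3.25), or 8.36-fold. Acot1 held 81.6% of the pair's counts in the fasted library (79.7 to 83.4) and 77.3% in the fed library (72.1 to 81.9). These intervals overlap, which does not decide whether the balance between the pair shifted, since an interval for the difference was not computed.

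Both peroxisomal type I members had few reads, and they too were in larger number in the fasted library. Acot4, whose mouse enzyme hydrolyses succinyl-CoA and dicarboxylic acyl-CoAs (chr12:84038379-84048601, plus strand), had 77 counts in the fasted and 22 in the fed library. Its log2 ratio was 2.31 (1.61 to 3.06), or 4.94-fold. Acot3, a peroxisomal enzyme for long- and medium-chain acyl-CoAs (chr12:84052144-84060402, plus strand), had 7 counts in the fasted library and 0 in the fed library. Set against a floor of 3 counts in the fed library (0.429 CPM), Acot3 was at least 3.29-fold higher, a bound that leaves out the counting error of the 7 fasted reads. The interval that includes it began at a log2 ratio of 1.03, or 2.04-fold. An antisense gene, 4732463B04Rik, covers 9.21% of the Acot4 exons and 9.08% of the Acot3 exons, and had 14 counts in the fasted and 7 in the fed library. Gm49366, a protein-coding gene on the same strand that is not among the counted gene IDs, covers 11.5% of the Acot3 exons and 0.494% of the Acot4 exons. The strand setting of the counting is not given in the sources used here.

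Of the 6 type II genes, Acot7, Acot8, Acot11 and Acot13 were within 2-fold, Acot9 was lower and Acot12 had too few reads to be called measured. Acot7, an enzyme for long-chain acyl-CoAs that is abundant in brain (chr4:152178134-152271855, plus strand), had 479 counts (95.4 CPM) in the fasted library and 487 counts (69.7 CPM) in the fed library. The log2 ratio of Acot7 was 0.47 (0.29 to 0.66). Acot13, also named Them2, which binds the phosphatidylcholine transfer protein (chr13:24817948-24831540, minus strand), had 294 counts (58.6 CPM) in the fasted library and 308 counts (44.1 CPM) in the fed library. The log2 ratio of Acot13 was 0.43 (0.20 to 0.67). Acot8, the peroxisomal enzyme of broad substrate range (chr2:164792765-164804882, minus strand), had 203 counts (40.4 CPM) in the fasted library and 199 counts (28.5 CPM) in the fed library. Its log2 ratio was 0.53 (0.24 to 0.82). All 3 ratios lay above 1 by more than counting error and stayed below 2-fold, and 90.5%, 89.2% and 91.8% of measured genes had a lower ratio than Acot7, Acot13 and Acot8. Exons of Snx21, on the other strand, cover 12.3% of the Acot8 exons.

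Acot11, also named Them1 and known from brown fat (chr4:106744555-106804998, minus strand), carries a lipid-binding START domain. It had 129 counts (25.7 CPM) in the fasted library and 159 counts (22.8 CPM) in the fed library, a log2 ratio of 0.20 (-0.15 to 0.54). Its interval held a ratio of 1, so a difference was not detectable at this depth. Exons of Fam151a, which had 0 counts in both libraries, cover 20.9% of its exons. Acot12 is the other member with a START domain, a cytosolic acetyl-CoA hydrolase known from liver (chr13:91741512-91786148, plus strand). It had 13 counts in the fasted library and 2 in the fed library. With so few reads the ratio was 9.18-fold with an interval of 2.08 to 83.8. The antisense gene 4833422C13Rik covers 4.52% of its exons and had 0 counts in the fasted and 1 in the fed library.

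Acot9, a mitochondrial type II enzyme (chrX:155262443-155297654, plus strand), was the member with a lower level in the fasted library. It had 7 counts (1.39 CPM) in the fasted library, against 29 counts (4.15 CPM) in the fed library. The log2 ratio of Acot9 was -1.55 (-2.99 to -0.33), and 0.815% of measured genes had a lower ratio. The call rests on 36 reads, and it ended at a 3-fold threshold, or if the near end of the interval was required to reach 2-fold. At a minimum of 5 CPM Acot9 was no longer measured.

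Levels of different genes were compared per kilobase of merged exons (CPM per kb), a scale that depends on which transcripts of a gene are used. In the fasted library Acot13 had 78.7 CPM per kb, Acot1 73.4, Acot7 44.9, Acot2 29.6 and Acot8 20.2. Acot11 and Acot4 followed with 4.24 and 2.30 CPM per kb. Acot12, Acot9 and Acot3 stayed below 1 CPM per kb. Counting intervals overlapped between Acot13 and Acot1 and among the last 3 genes, and all other neighbours in this order lay apart.

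In the fed library the order was different. Acot13 had 59.3 CPM per kb, Acot7 32.8, Acot8 14.3 and Acot1 8.44. Acot2 and Acot11, whose intervals overlapped, had 4.43 and 3.76 CPM per kb, and Acot9 had 1.83. Acot4 had 0.472 and Acot12 0.0869 CPM per kb, and Acot3 had no count, with overlapping intervals between these neighbours. Acot1 was thus rank 2 in the fasted and rank 4 in the fed library, while Acot13 was rank 1 in both.

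**Figure D2:**
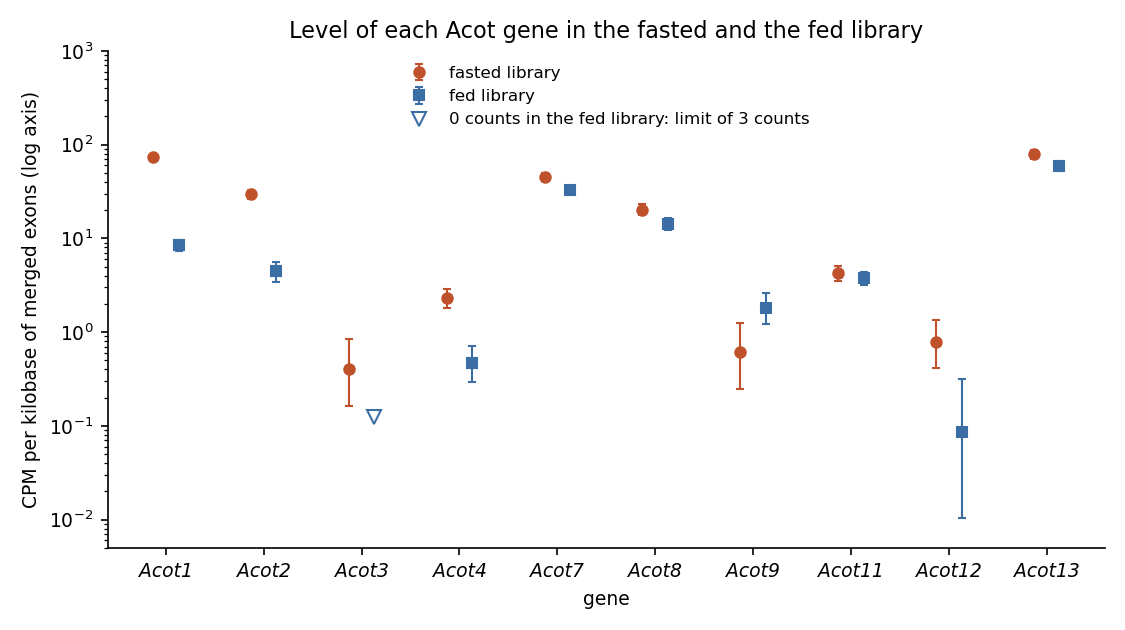
Level of each Acot gene in CPM per kilobase of merged exons, on a log axis, in the fasted library (circles) and the fed library (squares), with exact Poisson 95% intervals as bars. The open triangle marks the limit that 0 counts of Acot3 in the fed library allows, at 3 counts. Acot1 and Acot2 show the widest gaps among the genes with more than 100 counts in all, while for Acot13, Acot7, Acot8 and Acot11 the point of the fasted library lies close to that of the fed library.

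The make-up of the family, which needs no scaling between libraries, differed as well. The 10 genes together held 2979 counts (593 CPM) in the fasted library and 1505 counts (215 CPM) in the fed library, a log2 ratio of 1.48 (1.39 to 1.57). The type I genes took 62.2% of these counts in the fasted library (60.5 to 64.0) and 21.3% in the fed library (19.3 to 23.5). Acot1 alone took 48.5% in the fasted library (46.7 to 50.3) and 15.3% in the fed library (13.6 to 17.3). Without Acot1 and Acot2 the other 8 genes had 1209 counts in the fasted library and 1206 in the fed library, a log2 ratio of 0.50 (0.39 to 0.62). Most of the difference in the family total thus lay in that pair.

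Type II genes took 37.8% of the family's counts in the fasted library and 78.7% in the fed library. Their summed log2 ratio was 0.42 (0.31 to 0.54), so their smaller share went with a level that was not lower. Acot7, with 16.1% in the fasted library and 32.4% in the fed library, held the largest share of the 10 genes in the fed library. Per kilobase of exons the share of Acot1 was 28.8% in the fasted and 6.73% in the fed library, and Acot13 then held the largest share in both, with 30.8% and 47.3%.

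**Figure D3:**
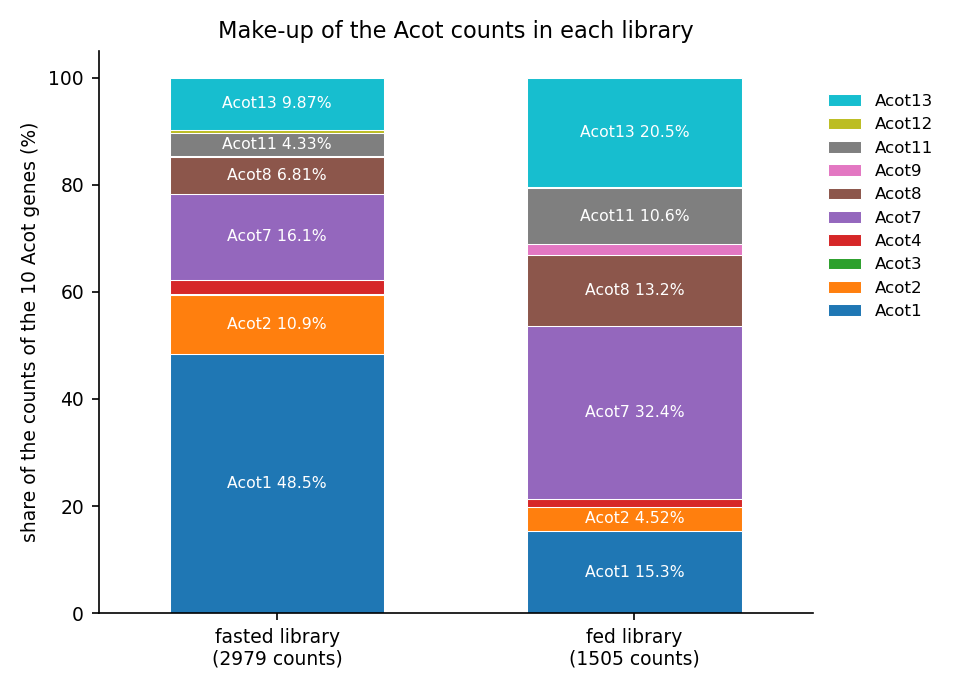
Share of each gene in the counts of the 10 Acot genes, in percent, in the fasted library (left, 2979 counts) and the fed library (right, 1505 counts). Shares of at least 4% are labelled. Acot1 and Acot2 take 59.4% of the fasted bar and 19.9% of the fed bar.

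The cluster on chromosome 12 also holds Acot5 and Acot6, peroxisomal enzymes in mice that are not among the 10 genes. All 6 genes lie on the plus strand within 123 kb (chr12:83987861-84111349). Acot6, which in mice acts on branched-chain acyl-CoAs, had 64 counts in the fasted library and 36 in the fed library, a log2 ratio of 1.33 (0.72 to 1.96), and was called higher. Acot5 had 0 counts in both, which allows up to 0.598 CPM in the fasted and 0.429 CPM in the fed library. Summed over all 6 genes the log2 ratio was 2.92 (2.76 to 3.09).

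Genes beside the cluster were mostly within 2-fold. Of 9 nearby protein-coding genes, 4 on the left and 5 on the right, 7 were measured, with 1 higher, 0 lower and a median log2 ratio of 0.05. Next to the cluster on its left, Riox1, an oxygenase gene, had 247 counts in both libraries, a log2 ratio of 0.50 (0.24 to 0.76), and Heatr4 had 1 count in the fasted and 0 in the fed library. On its right, the dynein light chain gene Dnal1 had 36 counts in the fasted and 49 in the fed library, a log2 ratio of 0.05 (-0.61 to 0.70). The higher neighbour was Papln, with 167 counts in the fasted and 88 in the fed library and a log2 ratio of 1.42 (1.04 to 1.81). The others, Numb, Elmsan1, Ptgr2 and Zfp410, had log2 ratios from -0.03 to 0.09, and Pnma1 had 2 counts in the fasted and 5 in the fed library.

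**Figure D4:**
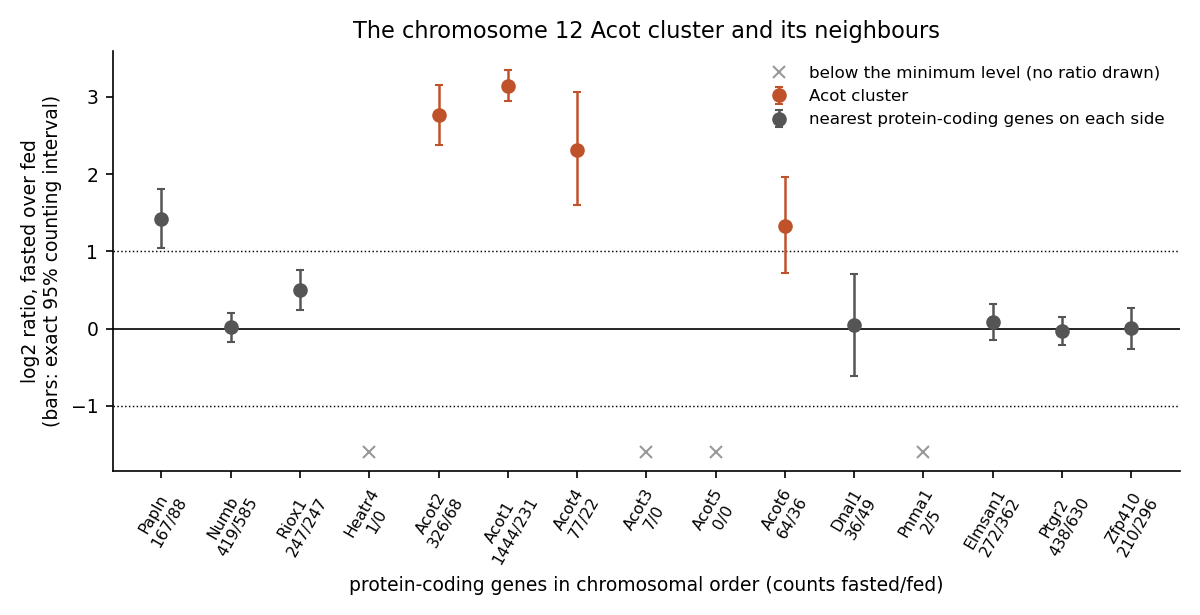
Log2 ratio of fasted over fed, with exact 95% counting intervals, for the 6 genes of the chromosome 12 cluster and 9 nearby protein-coding genes, in chromosomal order with counts (fasted/fed) under each name. The 4 measured genes of the cluster lie above the 2-fold line (dotted), and of the neighbours Papln does.

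PPARs bind DNA with RXR partners at a direct repeat of AGGTCA with 1 free base between the copies. The promoters of the members were searched for this motif on both strands, and separately for a lone AGGTCA, which is part of it. RefSeq promoters of GRCm38.p6, from 250 bases before to 50 bases after the gene start, were found for 9 of the 10 members. The best match in each was scored as the number of the 12 fixed bases it held. Acot12 matched 11 of 12, a score reached by 0.554% of 32851 promoters, and Acot4 matched 10 of 12, a score reached by 3.86%. Acot2, Acot3 and 1 of 2 Acot11 promoters matched 9, a score reached by 24.6%. Acot1, Acot7 and Acot9 matched 8, which 79.8% of promoters reach, and Acot8 matched 7.

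An exact AGGTCA was present in the promoters of Acot3, Acot4 and Acot12, and in 16.3% of all promoters. The 250 bases before the start are shown for Acot12 and Acot4, which had the best matches, and for Acot1 and Acot2, which had the most reads among the higher genes. All 4 are on the plus strand, and the best match is in capitals. It is read on the opposite strand in Acot12 and Acot4. A match describes letters in this window and says nothing about binding.
Acot12 chr13:91741271-91741520: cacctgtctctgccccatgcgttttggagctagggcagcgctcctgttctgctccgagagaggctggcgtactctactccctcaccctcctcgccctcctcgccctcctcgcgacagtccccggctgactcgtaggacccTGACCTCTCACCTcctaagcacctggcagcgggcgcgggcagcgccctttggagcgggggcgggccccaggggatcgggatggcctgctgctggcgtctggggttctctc
Acot4 chr12:84038129-84038378: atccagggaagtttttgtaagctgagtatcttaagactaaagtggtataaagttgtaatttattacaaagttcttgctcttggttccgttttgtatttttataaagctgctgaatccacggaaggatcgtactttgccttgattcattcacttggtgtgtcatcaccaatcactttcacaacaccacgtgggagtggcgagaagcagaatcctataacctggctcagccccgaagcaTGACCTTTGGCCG
Acot1 chr12:84009252-84009501: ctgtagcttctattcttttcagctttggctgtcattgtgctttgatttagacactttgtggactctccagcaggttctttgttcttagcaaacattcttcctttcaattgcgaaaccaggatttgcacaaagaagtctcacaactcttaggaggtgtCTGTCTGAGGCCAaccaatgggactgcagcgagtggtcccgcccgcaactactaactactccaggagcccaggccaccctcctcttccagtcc
Acot2 chr12:83987611-83987860: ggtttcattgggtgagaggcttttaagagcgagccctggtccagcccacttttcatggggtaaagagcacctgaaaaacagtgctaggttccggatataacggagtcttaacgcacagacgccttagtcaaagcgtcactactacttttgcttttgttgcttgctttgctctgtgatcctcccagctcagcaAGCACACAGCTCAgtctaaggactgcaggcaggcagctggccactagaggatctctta

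The other measured genes of acyl-CoA hydrolysis had smaller ratios than Acot1 and Acot2. Of 9 relatives outside the 10 genes 5 were measured, of which 1 (Acot6) was higher and 0 lower, and the median log2 ratio was 0.34. Them4, a mitochondrial thioesterase, had 120 counts in the fasted and 93 in the fed library, a log2 ratio of 0.87 (0.46 to 1.27). The lysosomal palmitoyl thioesterases Ppt1 and Ppt2 had 0.09 (-0.07 to 0.25) and 0.34 (0.03 to 0.64), and Them6 had -0.03 (-0.63 to 0.55). Acot10 and Acot5 had 0 counts in both libraries, Them5 had 1 count in the fasted and 0 in the fed library, and Baat, a bile acid conjugating enzyme of the type I fold, had 0 in the fasted and 2 in the fed library.

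The synthetases, which run the reaction in the other direction, were within 2-fold but for 1. Of 14 measured acyl-CoA synthetase genes 0 were higher and 1 was lower, and the median log2 ratio was 0.08. Acss3, an acyl-CoA synthetase for short chains, had 30 counts in the fasted and 100 in the fed library, a log2 ratio of -1.24 (-1.88 to -0.64). Genes of CoA supply and turnover (13 measured) had 0 higher and 0 lower and a median of 0.28. Acyl-CoA binding proteins (5 measured) had 0 higher and 0 lower and a median of 0.0031.

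Beta-oxidation, which draws on the same acyl-CoAs, had more genes past 2-fold. In mitochondria 12 of 18 measured genes were higher and 0 lower, at a median log2 ratio of 1.35. The 4 highest were Acadl at 2.53 (2.40 to 2.66), Slc25a20 at 2.29 (2.07 to 2.53), Eci2 at 2.22 (2.07 to 2.38) and Hadhb at 2.02 (1.79 to 2.26). In peroxisomes 3 of 13 were higher and 0 lower, at a median of 0.78. They were the thiolase gene Acaa1b at 1.65 (0.45 to 2.97), from 20 counts in the fasted and 9 in the fed library, Ehhadh at 1.34, from 969 counts in the fasted and 540 in the fed library, and the racemase gene Amacr at 1.10 (0.75 to 1.44). The ratio of Acot1 lay above that of every measured gene in these 2 lists, and differences between lists were not tested.

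**Figure D5:**
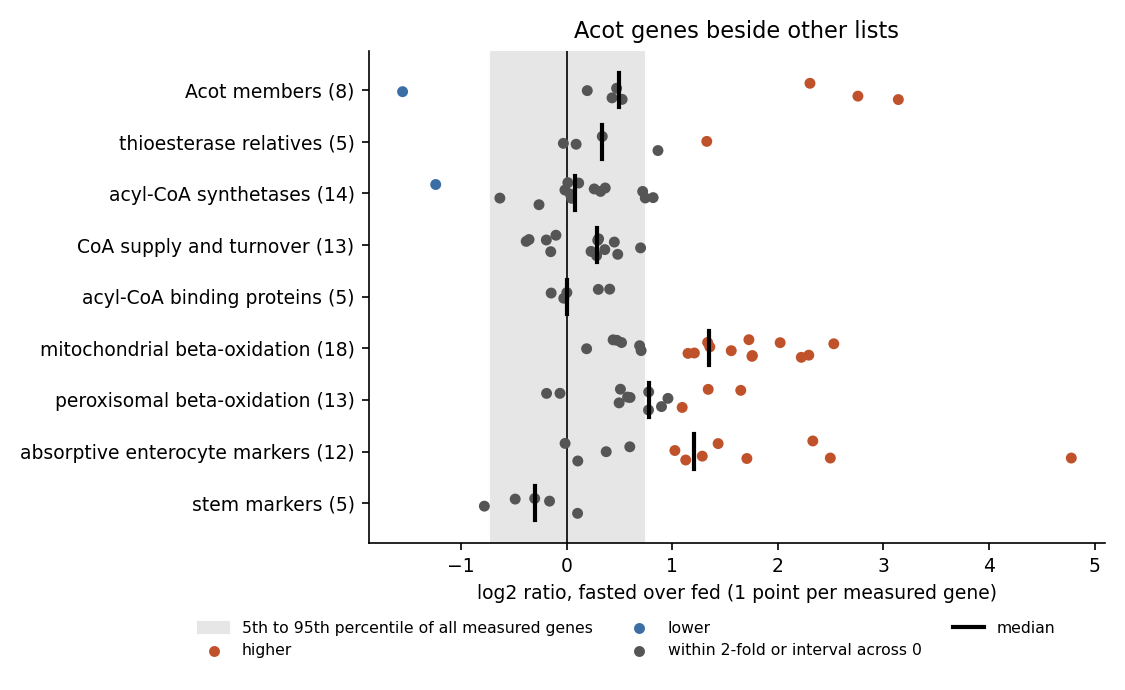
Log2 ratio of fasted over fed for each measured gene (points) of the Acot family and of 8 other lists, with the number measured in brackets and the median of each list as a bar. The grey band spans the 5th to 95th percentile of all measured genes. The Acot genes are spread from -1.55 to 3.14, while all 13 genes of CoA supply lie inside the band.

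Few genes had ratios as high as the summed Acot1 and Acot2. Of 10186 measured protein-coding genes that averaged at least 5 CPM over both libraries, 17 had a log2 ratio at or above 3.06, and Acot1 itself is among them. The 5 genes nearest to it were sought by the difference in log2 ratio between these 2 libraries. The Acot members, predicted genes and pseudogenes were left out. They were Akr1b8 at 3.07 (2.36 to 3.85), Slc22a3 at 2.95 (2.14 to 3.85), Cst6 at 3.28 (2.12 to 4.67), Pck1 at 3.35 (2.54 to 4.27) and Acadl at 2.53. In this order, those before Acadl had 19, 15, 7 and 14 counts in the fed library, each below 5 CPM. They passed the minimum of 5 CPM only through the fasted library, where they are high. Acot1 and Acot2 on their own lay nearer than Acadl. With 2 libraries this likeness is a single difference per gene, and all of these but Acadl had fewer than 150 counts in both libraries together.

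Markers of other cell types were read from the same libraries. Among 6 goblet cell markers 3 were higher and 0 lower, and their summed levels were 1137 CPM in the fasted and 561 CPM in the fed library. The 3 higher genes were Zg16 at a log2 ratio of 1.63 (1.39 to 1.88), Tff3 at 1.59 (1.42 to 1.75) and Fcgbp at 1.36 (1.27 to 1.45). Among 6 Paneth cell markers 1 was higher, Mmp7 at 2.07 (1.82 to 2.33), and 0 lower, with summed levels of 959 CPM in the fasted and 1096 CPM in the fed library. Mmp7 was the only Paneth marker with a positive log2 ratio, and the median of the 6 was -0.21. The lowest was Defa30 at -0.79 (-0.97 to -0.61). Enteroendocrine (4 measured) and tuft (3 measured) markers had 0 higher and 0 lower. Of the immune markers 3 were measured, with 0 higher and 1 lower, Cd68 (6 counts in the fasted and 25 in the fed library). None of the 3 had a positive log2 ratio. The immune markers summed to 806 CPM in the fasted and 1043 CPM in the fed library. Most of this was Cd74, with 800 and 1030 CPM and a log2 ratio of -0.34 (-0.40 to -0.29). The adipocyte markers Adipoq, Plin1, Fabp4 and Lep were at 0 in both libraries. Of 4 hepatocyte markers Alb and Serpina1a were at 0 in both libraries, Apoh had 4 counts in the fasted and 5 in the fed library, and Ttr was measured, with 191 counts in the fasted and 284 in the fed library and a log2 ratio of -0.07 (-0.35 to 0.20). Of 7 stroma and endothelium markers none was measured. The 5 stem cell markers were within 2-fold, with a median log2 ratio of -0.30, and 1 of them had a positive log2 ratio. Their summed levels were 9857 CPM in the fasted and 16320 CPM in the fed library. Most of this was Olfm4, with 8257 and 14373 CPM and a log2 ratio of -0.78 (-0.79 to -0.76). The part of goblet, Paneth, immune and stem cell markers in the Acot values was not tested.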

How the data were processed

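The deposited files of the 2 libraries hold the authors' raw counts by Ensembl gene ID, whole numbers without normalisation as the values show. FastQC, STAR, HTSeq and DESeq and the builds GRCm38 and mm10 are named per the submitters' processing notes, while gene annotation, strand setting and read length were not given in the sources used here. A deposited signal table holds counts divided by 1 factor per library (0.842 fasted, 1.19 fed). Counts divided by these factors matched 99.999% of its values within 0.0051, so whole reads were recovered. Ratios from it called 302 genes higher and 230 lower, as many as the counts did. Its factors equal the scaling factors used here to the digits shown, and the intervals were those of the counts. The equal numbers are therefore no separate check.

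Gene IDs were matched to GENCODE M21 (45143 of 45706), which gave coordinates, merged exon lengths and transcripts. Libraries were scaled by median-of-ratios size factors (0.842 fasted, 1.19 fed). Intervals came from the fasted share of a gene's reads (scipy 1.17.1), and a floor of 3 counts stood for 0. Intervals and the floor cover counting error only. Transcript windows were searched on both strands in all transcripts of the annotation. Coding sequences were aligned with Biopython 1.88.

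On simulated counts for 12026 genes of the fasted against fed comparison, calls were made for 66 of 66 genes with an 8-fold change, 67 of 67 with a 3-fold change, 3 of 67 with a 1.5-fold change and 0.389% of unchanged genes. The simulated libraries held counting error only, without differences between mice, cell sorts or libraries. These shares are therefore not error rates of the real comparison.

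The members, gene lists and tests were chosen with earlier results of these data known. All members are named, with the relatives, list genes past the threshold (up to 4 per list and direction), cluster neighbours (5 on each side, of which 1 is not reported here) and the 5 genes of nearest ratio. Alternatives were scaling by total counts, TMM (edgeR 4.0.16) or upper quartiles, the deposited values, other filters and thresholds, a running median over exon length (501 genes), and Acot1 with Acot2 as 1 unit.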

Additional observations from a re-analysis of the deposited data

How the results depend on the processing

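No paired analysis was possible because each condition has 1 library, and for the same reason no library could be left out. The counts of 3 higher and 1 lower genes stayed the same with scaling by TMM, upper quartiles or total counts, with the authors' normalised values, at a 1.5-fold threshold and after the length correction, which brought the median to 0.39. Without the low-count filter 5 of 10 genes were higher, as Acot3 and Acot12 then entered (log2 ratios of 1.72, at its bound, and 3.20), and the median became 1.12. The number of lower genes was 0 at a minimum of 5 CPM, at a 3-fold threshold and where the near end of the interval had to reach 2-fold, because Acot9 no longer passed. With Acot1 and Acot2 as 1 unit 2 genes were higher and 1 was lower. A filter, a threshold or taking Acot1 with Acot2 as 1 unit cannot change the ratio of a single gene. The authors' normalised values hold the same counts and nearly the same factors. Only scaling by TMM, upper quartiles or total counts and the length correction could thus move a ratio by more than rounding. All 108 recomputed ratios of single genes, the unchanged ones included, stayed inside the reported intervals. The summed ratio of Acot1 and Acot2 ranged from 2.92, over the whole cluster, to 3.09. Depth limits Acot3, Acot9 and Acot12, each with fewer than 40 counts over both libraries.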
